A study of Mus musculus with 10 samples.

Results

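The proximal tubule endocytic receptor machinery was followed through 8 genes, *Lrp2*, *Cubn*, *Amn*, *Dab2*, *Clcn5*, *Ocrl*, *Fcgrt* and *Lrpap1*, which were taken from a fixed list of names. All 8 were among the 21792 genes of the deposited values, and all 8 were among the 17129 genes tested. RNA was taken from the kidney cortex of wild-type male C57BL/6 mice, at day 28 after an intraperitoneal injection given at an age of 8 weeks. Sham mice (n = 4) received PBS. AAN mice (n = 6) received aristolochic acid once, at 5 mg/kg, a plant toxin that injures the proximal tubule (aristolochic acid nephropathy). Each mouse gave 1 library. The depth, estimated from the deposited values as described below, was 13390000 to 17510000 fragments. Levels are given in FPKM, the number of fragments scaled to the length of the transcript and to the fragments mapped in the library. Mice are named by the tags of their labels, B607, B634, B636 and H249 for sham and A483, B614, B630, B639, B642 and B666 for AAN. The meaning of the letters is not given in the sources used here.

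Cells of the proximal tubule take back the proteins that pass the glomerular filter. *Lrp2* encodes megalin, a giant receptor of the LDL receptor family, and *Cubn* encodes cubilin, a receptor without a membrane anchor that reaches the brush border together with amnionless, the product of *Amn*. *Dab2* encodes the clathrin adaptor that binds the megalin tail, and *Lrpap1* encodes RAP, the chaperone that keeps newly made receptors of the family from binding ligands too early. *Clcn5* encodes the endosomal chloride/proton exchanger ClC-5 and *Ocrl* an inositol polyphosphate 5-phosphatase of endosomes, and loss of either gives tubular loss of low molecular weight protein (Dent disease, and for *OCRL* also Lowe syndrome). *Fcgrt* encodes the neonatal Fc receptor, which carries albumin and IgG away from lysosomes.

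In the AAN mice, the genes of the uptake receptors and of their chaperone were lower, 1 endosomal gene was higher, and the others did not pass the test. *Lrp2* fell 3.65-fold, *Cubn* 2.21-fold, *Lrpap1* 1.98-fold and *Amn* 1.67-fold, *Ocrl* rose 2.47-fold, and *Dab2*, *Clcn5* and *Fcgrt* did not pass the test. The test was limma on log2(FPKM + 0.1), with Benjamini-Hochberg adjustment of the p-values across every gene tested. With limits of an adjusted p of 0.05 and a 2-fold change, 2 of the 8 genes were called lower (*Lrp2* and *Cubn*), against 3.43% of all genes, and 1 was called higher (*Ocrl*), against 35.8% of all genes. With the adjusted p alone, 4 were lower (these with *Amn* and *Lrpap1*), against 6.00% of all genes, and 1 was higher, against 55.4%. In bulk cortex, fewer proximal tubule cells and less RNA of these genes per cell cannot be told apart.

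The deposited FPKM were uneven between the groups, and this moves every value of this kind. The median of all genes tested was 0.75 higher in the AAN mice on the log2 scale. Rescaling by the median of ratios brought it to 0.07, and the share of called genes that were higher went from 91.2% to 64.4%. After that rescaling, 6 of the 8 genes were called lower (all but *Clcn5* and *Ocrl*) and none higher, against 10.5% and 19.0% of all genes. With the adjusted p alone, 7 were then lower and *Ocrl* higher, against 21.0% and 26.0%.

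All 8 genes lie on named chromosomes of GRCm38, in the GENCODE annotation. *Lrp2* (ENSMUSG00000027070) spans chr2:69424340-69586065 on the minus strand and has a longest transcript of 15460 bases, and *Cubn* (ENSMUSG00000026726) spans chr2:13276338-13491813 on the same strand, with 11262 bases. *Amn* (ENSMUSG00000021278) is at chr12:111271095-111276426 on the plus strand, with 1701 bases. *Dab2* (ENSMUSG00000022150) is at chr15:6299788-6440712 on the plus strand, with 4663 bases. *Lrpap1* (ENSMUSG00000029103) is at chr5:35091501-35105766 and *Fcgrt* (ENSMUSG00000003420) at chr7:45092990-45103851, both on the minus strand. *Clcn5* (ENSMUSG00000004317) spans chrX:7153810-7319358 on the minus strand and *Ocrl* (ENSMUSG00000001173) spans chrX:47912387-47965868 on the plus strand. *Cubn* overlaps *Gm13270* on the other strand, and the strand use of the counting is not given in the sources used here. *Gm13270* lay at 0.0136 to 0.0952 FPKM in sham and 0.0993 to 0.284 FPKM in AAN mice.

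The starts of the genes that passed the adjusted p differ in base composition, and the 250 bases before the start are shown for these 5. They come from RefSeq on GRCm38.p6, 5′ to 3′ along the gene. The RefSeq start can differ from the end of the GENCODE span given above. For *Lrp2*, *Amn*, *Lrpap1* and *Ocrl* the window reaches into that span. Capitals mark the letters GGGCGG (GC box) on either strand, the only searched motif that these 5 hold. The regions are chr2:69586030-69586279 (minus strand) for *Lrp2*, chr2:13491877-13492126 (minus) for *Cubn*, chr12:111270846-111271095 (plus) for *Amn*, chr5:35105700-35105949 (minus) for *Lrpap1* and chrX:47912206-47912455 (plus) for *Ocrl*.
Lrp2: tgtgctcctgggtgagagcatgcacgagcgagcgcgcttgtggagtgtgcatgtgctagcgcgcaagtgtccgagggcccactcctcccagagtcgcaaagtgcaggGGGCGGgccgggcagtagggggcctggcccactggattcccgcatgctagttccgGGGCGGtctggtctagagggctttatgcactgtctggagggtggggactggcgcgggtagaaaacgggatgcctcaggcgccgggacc
Cubn: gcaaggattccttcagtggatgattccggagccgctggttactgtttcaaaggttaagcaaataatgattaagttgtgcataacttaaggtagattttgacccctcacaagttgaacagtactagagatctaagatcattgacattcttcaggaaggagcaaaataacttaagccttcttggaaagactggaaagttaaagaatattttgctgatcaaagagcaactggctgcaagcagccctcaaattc
Amn: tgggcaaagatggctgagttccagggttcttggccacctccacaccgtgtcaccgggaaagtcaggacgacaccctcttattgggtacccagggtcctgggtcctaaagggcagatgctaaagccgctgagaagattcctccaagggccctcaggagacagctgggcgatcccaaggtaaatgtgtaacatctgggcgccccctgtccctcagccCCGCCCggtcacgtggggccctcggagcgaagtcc
Lrpap1: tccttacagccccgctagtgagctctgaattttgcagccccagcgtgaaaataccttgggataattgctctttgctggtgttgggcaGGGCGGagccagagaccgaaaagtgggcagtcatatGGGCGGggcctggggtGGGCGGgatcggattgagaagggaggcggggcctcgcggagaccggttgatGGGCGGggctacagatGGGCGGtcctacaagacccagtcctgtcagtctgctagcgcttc
Ocrl: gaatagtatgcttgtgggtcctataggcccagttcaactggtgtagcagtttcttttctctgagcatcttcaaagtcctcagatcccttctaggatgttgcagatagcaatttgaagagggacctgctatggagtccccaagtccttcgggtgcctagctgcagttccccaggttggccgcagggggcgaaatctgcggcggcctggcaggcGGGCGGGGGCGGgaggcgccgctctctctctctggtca

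The *Cubn* window of the RefSeq start had 39.6% G and C and 2 CG pairs, while its partner gene *Amn* had 61.2% and 11 pairs and *Lrp2* had 66.4% and 18 pairs. Over all 32851 RefSeq start windows of this length the median was 52.4%, with quartiles of 45.2% and 61.2%. *Lrp2* held 2 GC boxes, 143 and 88 bases before the RefSeq start, *Amn* held 1, *Ocrl* held 2 that touch, and *Lrpap1* held 5, which 1.93% of all windows reach. The 2 boxes of *Ocrl*, and those of *Lrpap1* at 60 and 44 bases, lie within the GENCODE span of the gene. *Cubn* held none. Among the 10 windows of the 8 genes (*Dab2* and *Clcn5* have 2 each), 5 held a GC box, against 32.7% of all windows. The half-site of HNF1 (GTTAAT) was in 1, of *Dab2*, against 6.43%, the TATA box (TATAAA) in 1, of *Clcn5*, against 12.4%, and the nuclear receptor half-site (AGGTCA) in none, against 14.0%. All motifs were read on both strands, and a match is a run of letters and not a shown binding site.

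Among the receptors, *Lrp2* changed most. Its level was 189 FPKM in sham mouse B607, 46.1 in B634, 71.05 in B636 and 96.2 in H249, with a mean of 100.5 ± 62.3 (SD, n = 4). The AAN mice ranged from 13.5 FPKM (B630) over a median of 23.1 to 70.0 (B614), with a mean of 28.3 ± 21.01 (SD, n = 6). The other 5 AAN mice were all below the lowest sham mouse, at 20.01 ± 5.52 FPKM, and only B614 lay within the sham range. The log2 difference was -1.87 ± 0.47 (SE), a 3.65-fold decrease with a 95% confidence interval of 1.80 to 7.39, and an adjusted p of 0.00447. It ranged from -2.18 to -1.50 when 1 mouse was left out, and each of these passed. This placed *Lrp2* at percentile 1.1 of the differences of all genes, 2.62 below their median on the log2 scale. After the median-of-ratios rescaling the difference was -2.63 ± 0.42 and the groups did not overlap. Under that rescaling they did not overlap for any of the 8 genes but *Clcn5*, with *Ocrl* higher and the others lower. The share of all genes without overlap under it was not computed.

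*Cubn* followed *Lrp2* with a smaller change. It was at 37.8 FPKM in B607, 12.8 in B634, 19.1 in B636 and 25.1 in H249 (23.7 ± 10.7, SD, n = 4). The AAN mice ranged from 6.39 (B630) over a median of 8.76 to 23.6 (B614), with a mean of 10.9 ± 6.38 (SD, n = 6). As with *Lrp2*, B614 alone reached the sham range. The log2 difference was -1.15 ± 0.37 (SE, adjusted p = 0.0186, limma). It did not pass without sham mouse B607 (-0.89, adjusted p = 0.0606), with the 8 mice whose tags begin with B (adjusted p = 0.0862) or with the FPKM brought to the same total (-0.79, adjusted p = 0.164). After the median-of-ratios rescaling it was -1.91 ± 0.33 (adjusted p = 0.000627).

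*Amn* varied less between mice than its partner genes, with a coefficient of variation of 15.4% in sham and 23.8% in AAN mice, against 61.9% and 74.1% for *Lrp2* and 45.0% and 58.3% for *Cubn*. It was at 108 FPKM in B607, 80.0 in B634, 94.7 in B636 and 114 in H249 (99.3 ± 15.3, SD, n = 4). The AAN mice ranged from 44.1 (B630) over a median of 56.1 to 84.9 (B614), with a mean of 60.0 ± 14.3 (SD, n = 6). B614 was above sham mouse B634, and the other 5 AAN mice were below every sham mouse. The log2 difference of -0.74 ± 0.20 (SE, adjusted p = 0.00606, limma) was under the 2-fold limit, and was -1.51 ± 0.17 after the median-of-ratios rescaling. With the FPKM brought to the same total it was -0.38 (adjusted p = 0.302).

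*Lrpap1*, the receptor chaperone, had a log2 difference between those of *Cubn* and *Amn*. It was at 79.4 FPKM in B607, 47.1 in B634, 57.5 in B636 and 83.2 in H249 (66.8 ± 17.3, SD, n = 4). The AAN mice ranged from 22.5 (B630) over a median of 30.4 to 58.1 (B614), with a mean of 34.4 ± 12.7 (SD, n = 6). Again B614 alone lay within the sham range. The log2 difference was -0.99 ± 0.26 (SE, adjusted p = 0.00656, limma), just under the 2-fold limit. It ranged from -1.15 to -0.87 when 1 mouse was left out, with adjusted p-values up to 0.0250, and was -0.62 (adjusted p = 0.162) with the same total.

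**Figure D1:**
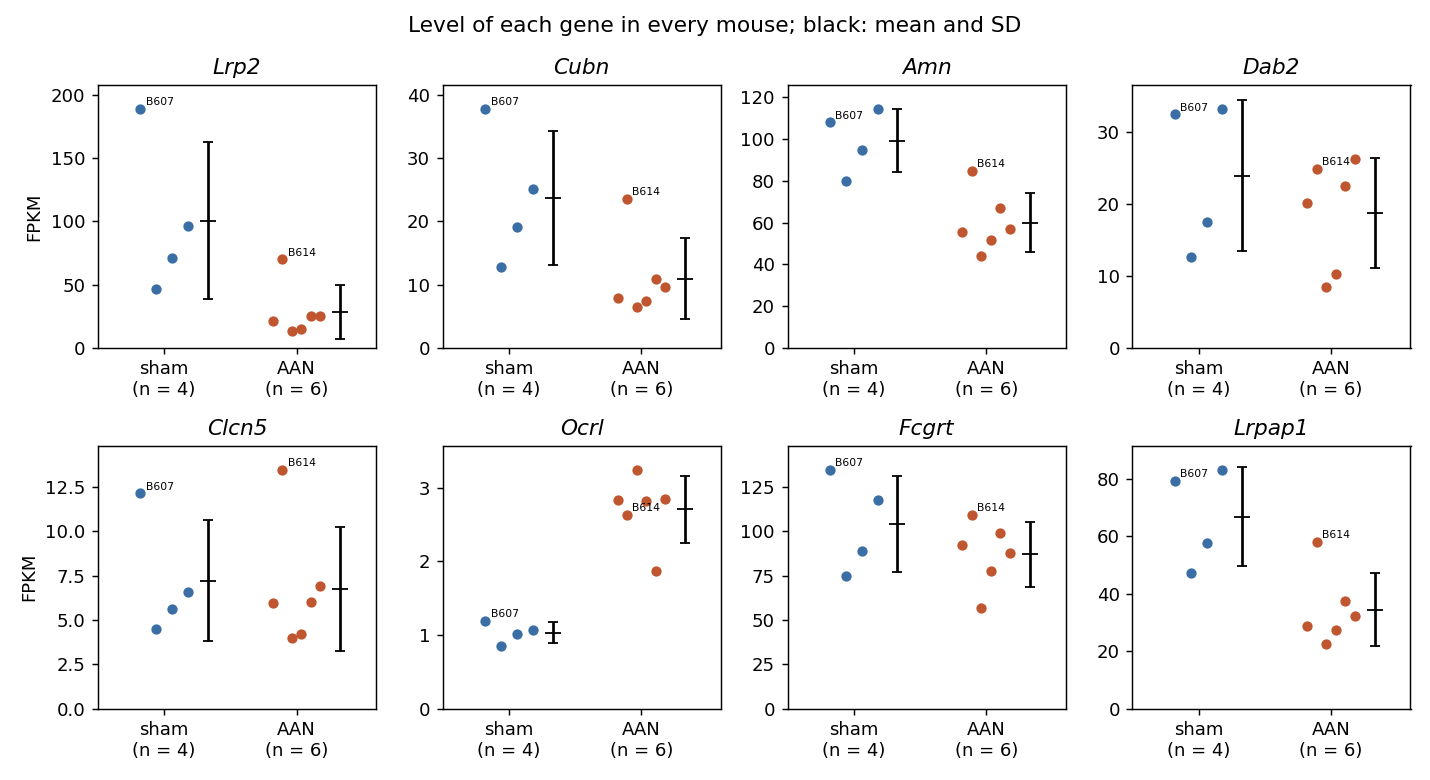
FPKM (y axis, from 0) of the 8 genes in each of the 4 sham and 6 AAN mice, 1 point per mouse, with the mean and SD of each group in black. *Lrp2* is at 46.1 to 189 in sham and at 13.5 to 70.0 in AAN mice, with B614 the highest AAN mouse, while *Ocrl* is higher in every AAN mouse.

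The adaptor *Dab2* did not pass the test. It was at 32.5 FPKM in B607, 12.6 in B634, 17.5 in B636 and 33.2 in H249 (24.0 ± 10.5, SD, n = 4), and the AAN mice ranged from 8.49 (B630) over a median of 21.4 to 26.2 (B666), with a mean of 18.7 ± 7.58 (SD, n = 6). The groups overlapped over most of their range. The log2 difference was -0.36 ± 0.39 (SE, 95% confidence interval -1.20 to 0.48, adjusted p = 0.430, limma). After the median-of-ratios rescaling it was -1.12 ± 0.33 (adjusted p = 0.0145). Macrophages are also known to express *Dab2*, and all 8 genes of the macrophage list rose in the AAN mice, where the mean of their log2 levels was 5.24 to 6.38, against 1.01 to 1.65 in sham. The part of these cells in the *Dab2* level was not tested.

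The endosomal genes *Clcn5* and *Ocrl*, both on the X chromosome, went apart. *Clcn5* was at 12.2 FPKM in B607, 4.49 in B634, 5.62 in B636 and 6.60 in H249 (7.22 ± 3.40, SD, n = 4), and at 3.96 (B630) to 13.5 (B614) in AAN mice, with a median of 5.98 and a mean of 6.75 ± 3.49 (SD, n = 6). The log2 difference was -0.12 ± 0.35 (SE, 95% confidence interval -0.88 to 0.65, adjusted p = 0.783, limma), and the sign turned without B607 (0.17), without AAN mouse B630 (0.01) and with the same total (0.24). After the median-of-ratios rescaling it was -0.87 ± 0.31 (adjusted p = 0.0369).

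*Ocrl* was the lowest of the 8 genes in every mouse and the only one that rose. It was at 1.19 FPKM in B607, 0.848 in B634, 1.02 in B636 and 1.07 in H249 (1.03 ± 0.142, SD, n = 4). The AAN mice ranged from 1.87 (B642) over a median of 2.83 to 3.25 (B630), with a mean of 2.71 ± 0.457 (SD, n = 6), and all lay above all sham mice, as did 40.3% of all genes tested (3.25% lay wholly below). The log2 difference was 1.302 ± 0.18 (SE, adjusted p = 8.3e-05, limma), at percentile 73.6 of all genes and 0.55 above their median. It kept its sign under every alternative and lost the call under 4 of them, with 0.59 (adjusted p = 0.0155) after the median-of-ratios rescaling, 0.23 (adjusted p = 0.322) after quantile normalization, 0.45 (adjusted p = 0.0527) after the length adjustment described below and 0.86 (adjusted p = 0.000121) with a pseudocount of 1. At the recovered depth, *Ocrl* rested on at most about 163 fragments in a sham mouse and 399 in an AAN mouse on average, against 28400 and 7420 for *Lrp2*.

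*Fcgrt*, the albumin and IgG salvage receptor, had the highest mean of the 8 genes in both groups. It was at 135 FPKM in B607, 74.9 in B634, 88.7 in B636 and 117 in H249 (104 ± 27.1, SD, n = 4), and at 56.5 (B630) to 109 (B614) in AAN mice, with a median of 90.0 and a mean of 87.0 ± 18.4 (SD, n = 6). The groups overlapped, and the log2 difference was -0.25 ± 0.22 (SE, 95% confidence interval -0.73 to 0.24, adjusted p = 0.345, limma). It was -1.01 ± 0.17 after the median-of-ratios rescaling (adjusted p = 0.000425), -0.23 after quantile normalization and 0.11 with the same total, so its direction depends on the scaling.

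The order of the mean levels changed with the group. In sham mice it ran *Fcgrt*, *Lrp2*, *Amn*, *Lrpap1*, *Dab2*, *Cubn*, *Clcn5*, *Ocrl*. *Lrp2* was above *Amn* in only 1 of 4 sham mice (B607), and *Dab2* above *Cubn* in only 1 of 4 (H249). The second place of *Lrp2* in sham mice thus rests on B607. Neighbours from *Fcgrt* to *Lrpap1* overlapped in range, as did *Dab2* and *Cubn*, and the ranges of *Lrpap1* and *Dab2*, *Cubn* and *Clcn5*, and *Clcn5* and *Ocrl* did not. In AAN mice *Lrp2* stood in the fourth place, below *Fcgrt*, *Amn* and *Lrpap1*, and was under *Lrpap1* in 5 of 6 mice. Only the last step there, from *Clcn5* to *Ocrl*, had ranges that did not overlap.

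**Figure D2:**
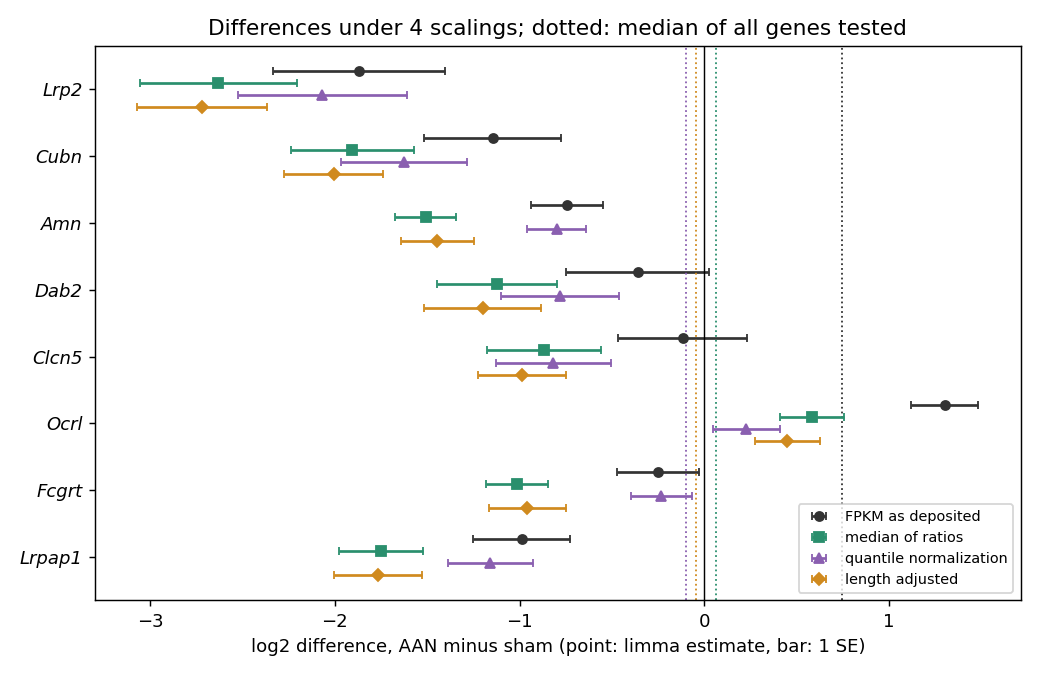
Log2 difference, AAN minus sham (x axis), of the 8 genes with the FPKM as deposited and after 3 other scalings, as the limma estimate with 1 SE, and the median of all genes tested under each scaling as a dotted line. Every gene but *Ocrl* lies below the median of all genes under all 4 scalings, and *Lrp2* is the lowest under each.

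The libraries also differed along transcript length, which touches the long genes *Lrp2*, *Cubn* and *Clcn5* (longest transcript of 8390 bases). Among genes that averaged 1 FPKM or more, the median deviation from the group mean of 554 genes with transcripts of at least 8 kb, minus that of 3196 genes under 2 kb, was 0.64 in B607 and -0.25 to -0.17 in the other sham mice. B614 stood at 0.59, and the 5 remaining AAN mice at -0.26 to 0.02. B607 and B614 were also the highest mice of their groups for *Lrp2*, *Cubn* and *Clcn5*. The same held for *Fcgrt*, a short gene (1770 bases). B614 was the highest AAN mouse for the shorter *Amn* and *Lrpap1* (2981 bases) too, where H249 was the highest sham mouse. Removing each mouse's trend along length, an adjustment added after the data were seen, gave -2.72 ± 0.35 for *Lrp2*, -2.005 ± 0.27 for *Cubn*, -1.45 ± 0.20 for *Amn*, -1.77 ± 0.24 for *Lrpap1* and -1.20 ± 0.32 for *Dab2*, and these 5 were called lower, against 11.5% of all genes (15.5% were higher). *Ocrl* was not called. The adjustment also centres each mouse, so it shares the shift of the rescaling above.

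**Figure D3:**
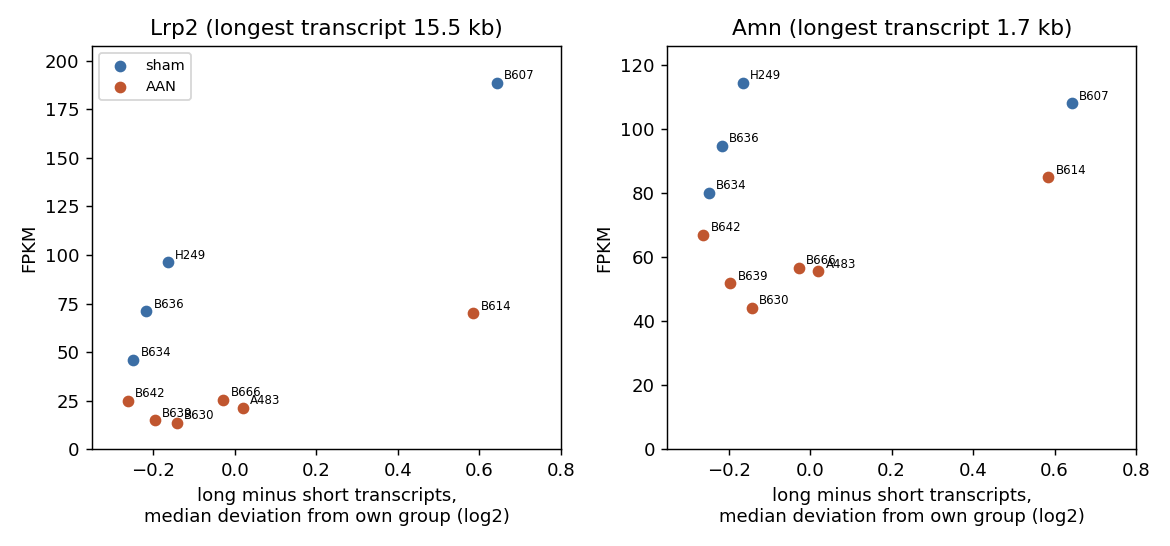
FPKM of *Lrp2* (15.5 kb, left) and *Amn* (1.7 kb, right) in each mouse (y axis) against the median deviation of long minus short transcripts in its library (x axis, log2). B607 at 0.64 and B614 at 0.59 stand to the right of the other mice, and are the highest mice of their groups for *Lrp2*, while for *Amn* H249 is above B607.

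Which genes moved apart from each other was asked within each mouse, where a common scaling factor drops out. The difference of a pair of log2 levels was taken in each mouse and the groups were compared with a two-sided exact permutation test over the 210 ways to part them into 4 and 6, which can give no p below 0.00476. Over the 18 differences tested, 16 passed after Benjamini-Hochberg adjustment. Against *Lrp2*, all 7 others were relatively higher in AAN mice. This direction follows from the choice of reference, as *Lrp2* had the lowest log2 difference of the genes followed (-1.87). With *Lrp2* at percentile 1.1 of the differences of all genes, nearly any gene rises against it. The share of all genes that pass such a comparison was not computed, so neither the direction nor the number that passed is a trait of these genes. *Cubn* minus *Lrp2* was -1.996 ± 0.22 in sham and -1.28 ± 0.22 in AAN mice (mean and SD), a change of 0.72 ± 0.14 (SE, exact permutation p = 0.00476), so that *Cubn* went from 0.251 to 0.413 of the *Lrp2* level, with no overlap. The change was 0.61 to 0.78 with any 1 mouse left out and 0.71 after the length adjustment.

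The other genes gave larger changes against *Lrp2*. *Dab2* changed by 1.51 ± 0.31, *Clcn5* by 1.75 ± 0.17 and *Ocrl* by 3.17 ± 0.52, each with no overlap between the groups (SE, exact permutation p = 0.00476). *Fcgrt* changed by 1.62 ± 0.35 (p = 0.00952, exact), from 1.15 to 3.54 times the *Lrp2* level. *Amn* changed by 1.12 ± 0.41 and *Lrpap1* by 0.88 ± 0.32 (exact permutation p = 0.0238 for both), with overlap. These last changes missed the threshold without B607, at 0.80 and 0.61 (exact permutation p = 0.0595, adjusted p = 0.0670 for both), and with the mice of B tags alone (adjusted p = 0.0804 and 0.0643).

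Cubilin and amnionless work as a complex, and their genes were compared too. *Amn* minus *Cubn* was 2.16 ± 0.47 in sham and 2.56 ± 0.37 in AAN mice (mean and SD), a change of 0.40 ± 0.28 (SE) that did not pass (exact permutation p = 0.162). It was 1.85 for B614, and 2.54 to 2.81 for the 5 remaining AAN mice. The change was 0.55 without B614 (exact permutation p = 0.0238), 0.82 after quantile normalization and 0.56 after the length adjustment (p = 0.00476, exact), and it passed in each of these.

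Compared with the mean of 14 other genes of the proximal tubule, no change of *Lrp2* could be told from theirs, and the 7 others were higher relative to that mean. The proximal tubule was measured by the mean log2 level of 14 genes of its transport and metabolism, such as *Slc34a1* (the phosphate transporter) and *Miox* (myo-inositol oxygenase). The log2 differences of these 14 genes were spread widely, from -4.99 to 0.12, with a median of -1.83. All of the 8 genes but *Ocrl* lay within that range, so the comparison is with the list mean and not with each gene of it. *Lrp2* minus this mean was -1.73 ± 0.61 in sham and -1.43 ± 0.33 in AAN mice (mean and SD), a change of 0.30 ± 0.34 (SE, exact permutation p = 0.333). Against the median of the 14 genes, taken after the data were seen, the change was -0.08, so no direction can be given. The 7 other genes were higher relative to the tubule mean in every AAN mouse than in any sham mouse. That mean itself fell, from 7.93 to 8.49 in sham to 5.57 to 7.45 in AAN mice. Any gene that fell less rises against it, and *Cubn*, the lowest of the 7, was at percentile 3.0 of the differences of all genes. The share of all genes that rise in this way was not computed, so this is no trait of these 7 genes.

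*Cubn* changed least of these, by 1.02 ± 0.23 relative to the tubule mean (SE), with sham mice between -4.24 and -3.25 and AAN mice between -2.99 and -2.44. *Lrpap1* changed by 1.18 ± 0.18, *Amn* by 1.42 ± 0.21, *Fcgrt* by 1.92 ± 0.26, *Clcn5* by 2.05 ± 0.23 and *Ocrl* by 3.47 ± 0.33 (exact permutation p = 0.00476 for each and for *Cubn*), and *Dab2* by 1.80 ± 0.39 (p = 0.00952, exact). Against the median of the list the changes of these 7 were between 0.64 and 3.09 and each still passed. *Amn* went from 0.339 to 0.908 and *Fcgrt* from 0.349 to 1.32 of the level that the 14 genes had on average (geometric mean).

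**Figure D4:**
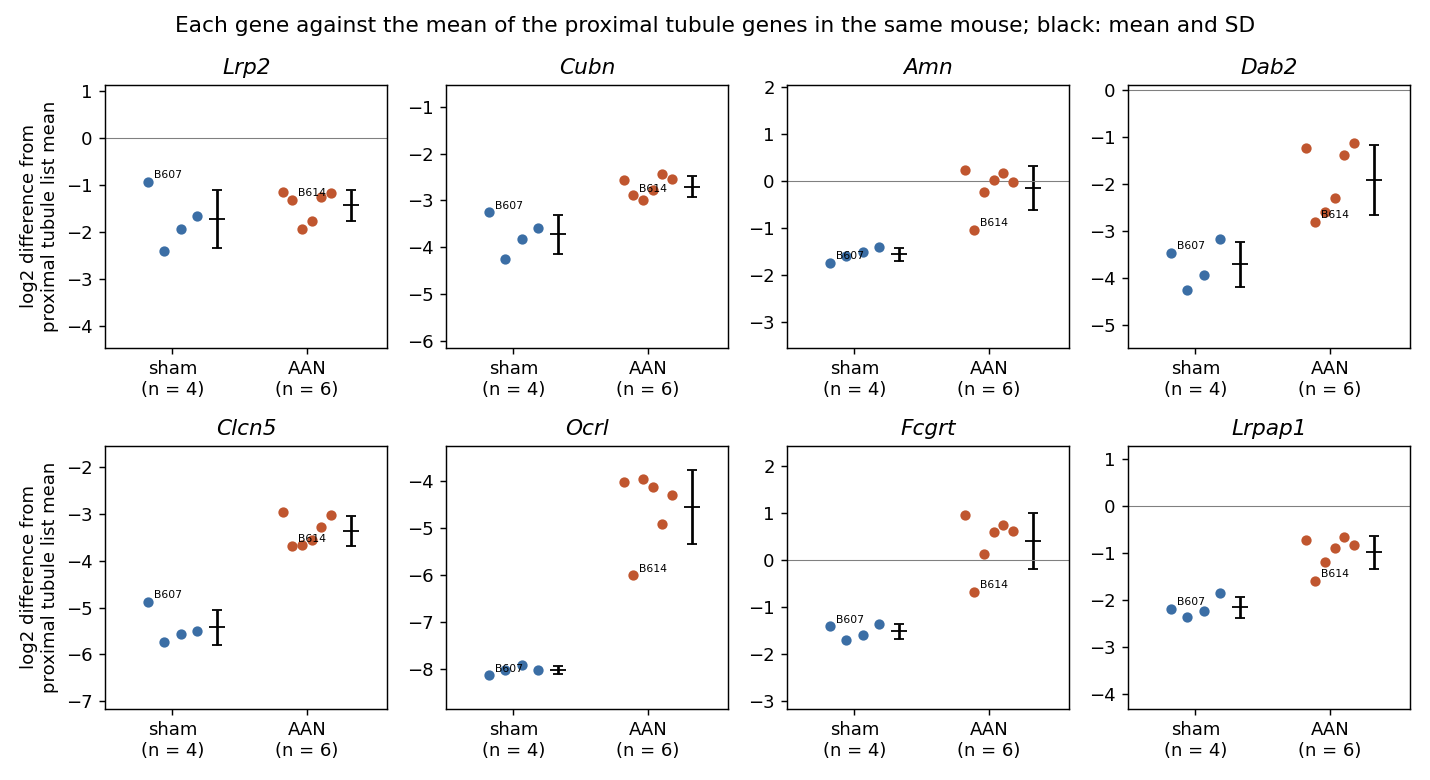
Log2 level of each of the 8 genes minus the mean log2 level of 14 proximal tubule genes in the same mouse (y axis, 5.6 log2 units in each panel), 1 point per mouse, with the mean and SD in black. The groups overlap for *Lrp2* and for no other gene, and B614 is the lowest AAN mouse for *Amn*, *Dab2*, *Clcn5*, *Ocrl*, *Fcgrt* and *Lrpap1*.

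Markers of the cell types of the cortex moved with the group, and their part in the levels above was not tested. With the FPKM as deposited, 3.43% of all genes were called lower and 35.8% higher. Of the 14 proximal tubule genes, all at 1 FPKM or more in sham mice, 9 were called lower and none higher. The mean of their log2 levels was 7.93 to 8.49 in sham mice. It was 7.45 for B614 and 5.57 to 5.89 for the 5 remaining AAN mice. All 8 injured tubule genes were called higher (0.72 to 1.17 in sham, 5.13 to 6.47 in AAN), as were all 8 macrophage genes and all 6 fibroblast genes (-0.18 to 0.18 in sham, 2.34 to 3.16 in AAN), and B614 had the lowest AAN value for each of these 3 lists. Of the 6 endothelial and the 4 thick limb genes none was called, of the 5 podocyte genes 1 was higher, and of the 7 genes of the distal tubule and collecting duct 1 was lower. Under the median of ratios, 10.5% of all genes were called lower and 19.0% higher. There, 13 proximal tubule, 1 endothelial, 2 thick limb and 3 distal genes were called lower, and no podocyte gene was called. The injured tubule, macrophage and fibroblast counts were as before. No gene of these lists was at 0 in all sham mice.

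*Lrp2* belongs to the LDL receptor family, and no other member of it was called lower with the FPKM as deposited, as were only 3.43% of all genes. Of 11 others, 2 were called higher, against 35.8% of all genes, with a median log2 difference of 0.54, against 0.75 for all genes. The median-of-ratios rescaling had 2 called higher and 1 lower, against 19.0% and 10.5% of all genes, with a median of -0.22. With the adjusted p alone, 2 were then higher and 3 lower, against 26.0% and 21.0%. *Lrp1*, the broadly expressed endocytic receptor of macrophages, fibroblasts and other cells, was at 1.51 ± 0.311 FPKM in sham and 8.74 ± 1.76 in AAN mice (2.45 ± 0.19 on the log2 scale, SE, adjusted p = 8.4e-07, limma). *Lrp8* rose too, at low levels, from 0.0278 to 0.278 FPKM. *Lrp2* minus *Lrp1* was 5.79 ± 0.81 in sham and 1.47 ± 0.94 in AAN mice (mean and SD), so that *Lrp2* went from 55.2 to 2.77 times the *Lrp1* level (change -4.32 ± 0.56, SE, exact permutation p = 0.00476). B614 was at 3.35 and the 5 remaining AAN mice at 0.77 to 1.43. The change in *Lrp2* minus *Lrp1* combines the fall of *Lrp2* (-1.87) with the rise of *Lrp1* (2.45). Both are reported here from the same mice, so the p of their difference is no separate evidence.

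In the general machinery of clathrin uptake and endosomes, no gene was called lower with the FPKM as deposited, as were only 3.43% of all genes. The list medians lay under the 0.75 of all genes. Of 17 coat and adaptor genes, 1 was called higher (median 0.66), against 35.8% of all genes, and with the adjusted p alone 9 were higher, against 55.4%. The gene called was *Ap2b1*, a subunit of the AP-2 adaptor, at 7.64 FPKM in sham and 19.8 in AAN mice. After the median-of-ratios rescaling the list had 1 called lower and none higher, against 10.5% and 19.0% of all genes. With the adjusted p alone 4 were then lower and 1 higher, against 21.0% and 26.0%. The list median was -0.10.

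Of 19 endosome and recycling genes, 3 were called higher and none lower (median 0.32), against 35.8% and 3.43% of all genes. With the adjusted p alone 7 were higher, against 55.4%. The 3 called were *Appl1*, an early endosomal protein that binds OCRL, and the sorting nexins *Snx5* (10.01 to 25.3 FPKM) and *Snx2* (24.7 to 50.4 FPKM). *Appl1* went from 1.66 to 4.45 FPKM (1.37 ± 0.16, SE, adjusted p = 2.1e-05, limma). After the median-of-ratios rescaling none was called higher and 2 were called lower, against 19.0% and 10.5% of all genes. With the adjusted p alone 9 were then lower and 2 higher, against 21.0% and 26.0%. The list median was -0.44, and *Appl1* was at 0.63.

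Among 15 genes of the CLC exchangers and of phosphoinositide metabolism, 2 were called higher and none lower (median 0.50), against 35.8% and 3.43% of all genes. The 2 were the 5-phosphatases *Synj1* (0.974 to 2.52 FPKM) and *Synj2* (0.0998 to 0.764 FPKM). *Inpp5b*, the closest relative of *Ocrl*, was at 9.24 FPKM in sham and 9.51 in AAN mice (0.12 ± 0.27, SE, adjusted p = 0.714, limma). The sign of that difference turned after the median-of-ratios rescaling (-0.64). After that rescaling the list had 1 gene called higher and 1 lower, against 19.0% and 10.5% of all genes, with a median of -0.26.

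Genes of proteins that megalin and cubilin take up moved in both directions. Of 14 such ligand genes, 7 were called higher and 4 lower (median 1.11), against 35.8% and 3.43% of all genes. After the median-of-ratios rescaling these were 5 and 4, against 19.0% and 10.5%. *Lcn2* (NGAL, also in the injured tubule list) rose from 0.274 to 46.4 FPKM, *Apoe* from 30.7 to 361, *B2m* from 398 to 2889 and *Clu* from 43.9 to 257. *Apoh* fell from 2.42 to 0.461 FPKM, *Alb* from 2.90 to 0.578, *Tcn2*, which carries vitamin B12, from 746 to 258, and *Ttr* from 126 to 42.0. *Rbp4*, counted among those higher and named after its values were seen, was listed at 0 in all 4 sham mice. It was at only 0.0491 to 0.447 FPKM in AAN mice, so the size of its difference rests on the 0.1 added before the log. These are the RNAs made in the cortex itself and not the filtered proteins. β2-microglobulin is also the light chain of the neonatal Fc receptor, and *Fcgrt* minus *B2m* went from -1.96 ± 0.55 in sham to -5.00 ± 0.62 in AAN mice (mean and SD), a change of -3.04 ± 0.37 (SE, exact permutation p = 0.00476), or from 0.258 to 0.0313 of the *B2m* level. Most of this is the rise of *B2m* (2.795 on the log2 scale), as *Fcgrt* itself did not pass the test (-0.25). The RNA of *B2m* in bulk cortex is not limited to the cells that hold this receptor.

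The genes also varied together from mouse to mouse. Within the groups (each value minus its group mean, 10 mice), Pearson's r was 0.76 to 0.99 over the 21 pairs without *Ocrl* and -0.23 to 0.09 over the 7 pairs with it. These are descriptions: the points share libraries, length trend and tubule content. Sham mouse B634 was the lowest sham mouse for all 8 genes, AAN mouse B630 the lowest AAN mouse for 7 (all but *Ocrl*, for which it was the highest), and B614 the highest AAN mouse for 6. After the length adjustment the ranges were 0.60 to 0.98 and -0.75 to -0.60.

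Of the 6336 genes that averaged 5 FPKM or more, the 5 most like *Lrp2* in this sense were *Slc17a3* (an organic anion transporter of the proximal tubule), *Arsb*, *Ogdh*, *Clcn5* and *Trap1* (r = 0.991 to 0.993, and 0.963 to 0.980 without B614 and B607). For *Cubn* they were *Amacr*, *Cdhr2* (a protocadherin of the brush border), *Lrp2*, *Treh* (the brush border trehalase) and *Smpd1* (r = 0.984 to 0.993). For *Amn* they were *Suclg1*, *Lrpap1*, *Gjb2*, *Slc37a4* (the glucose-6-phosphate transporter) and *Glb1* (r = 0.980 to 0.991). For *Dab2* none of the other 7 genes was among them, and they were *Dtnbp1*, *Galk2*, *Mrpl44*, *Gm9755* and *Mrps23* (r = 0.984 to 0.998). *Lrp2* and *Clcn5* thus had nearly the same pattern among mice of a group (r = 0.992), while the difference between the groups was -1.87 for one and -0.12 for the other on the log2 scale.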

How the data were processed

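Total RNA of kidney cortex was made into TruSeq libraries and read from both ends on a HiSeq Xten. The authors aligned the filtered reads with Hisat2 to GRCm38 (mm10 per the labels) and deposited FPKM values per gene from Stringtie, 1 set per mouse. Differential expression was tested by the authors with edgeR, which needs counts. FPKM are not counts, so limma 3.58.1 in R 4.3.3 (lmFit, eBayes with trend and robust) was fitted on log2(FPKM + 0.1) for genes that averaged 0.1 FPKM or more, with Benjamini-Hochberg adjustment. Symbols matched for 21650 of 21792 genes. Gene positions and transcript lengths came from GENCODE mouse release M21.

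Steps of 1 fragment in genes with 1 transcript gave depths of 13390000 to 17510000 fragments per mouse. Values were whole (within 0.05) in 94.5 to 96.9% of low values in those genes and in 9.60 to 12.0% in genes with several transcripts, so counts were not recovered. Fragment numbers are upper estimates from the whole exonic length and cover counting error only.

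Differences within a mouse were tested by exact permutation (Python 3.11.15, numpy 2.4.6, scipy 1.17.1). The genes and lists were chosen with earlier results of these data known. All 8 genes were named with their values, as were *Inpp5b*, *Lrp1*, *B2m*, up to 4 called genes per direction with the largest change in each pathway list, and, for *Lrp2*, *Cubn*, *Amn* and *Dab2*, the 5 genes of highest r. Of the genes this rule names, 1 is not reported here. Alternatives were pseudocounts of 1 and 0.01, no filter, a mean of at least 1 FPKM, 3 rescalings, limma without trend or robust, no fold limit, each mouse left out, and mice with B tags alone. Whether the mice came from separate cages or days is not given in the sources used here.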

Additional observations from a re-analysis of the deposited data

Results flagged for a closer look

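In 5 of 102 groups of values examined, 1 mouse stood apart from the others of its group by Dixon's test at the 95% level, and chance alone gives about 1 in 20. These 5 groups are not independent, as they share *Lrp2*, *Amn* and the mean of the proximal tubule list between them. In all 5 the mouse that stood apart was AAN mouse B614. Its mean log2 level of the proximal tubule list was 7.45, against 5.57 to 5.89 in the other AAN mice. On the log2 scale, *Amn* minus the proximal tubule mean was -1.04 (others -0.22 to 0.23), *Fcgrt* minus *Lrp2* was 0.64 (others 1.78 to 2.36), *Amn* minus *Cubn* was 1.85 (others 2.54 to 2.81) and *Lrp2* minus *Lrp1* was 3.35 (others 0.77 to 1.43). In each of these B614 was the AAN mouse nearest to the sham mice or beyond them. Without B614 the AAN mean of *Lrp2* was 19.9% of the sham mean, against 28.2% with it, and that of *Cubn* 35.6%, against 46.2%. The cause was not tested.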

How the results depend on the processing

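Of the 8 genes, the number called lower was 2 as reported, 6 after the median of ratios, 5 after the length adjustment, 4 with no fold limit and 1 with the same total or with B tags alone. It was 1 to 3 with 1 mouse left out (1 without B607). The number called higher was 1 as reported and 0 with the median of ratios, quantile normalization, the length adjustment or a pseudocount of 1. Over all genes, 588 were lower and 6126 higher as reported, 1801 and 3261 after the median of ratios, 1992 and 2546 after quantile normalization, 1959 and 2640 after the length adjustment, 1027 and 9482 with no fold limit, 332 lower with the same total, and 2909 and 4025 higher with a pseudocount of 1 and with a mean of at least 1 FPKM.

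Signs turned for *Dab2* (0.001), *Clcn5* (0.24) and *Fcgrt* (0.11) with the same total, for *Clcn5* without B630 (0.01) and B607 (0.17, in a range of -0.34 to 0.17), and for *Inpp5b* after the median of ratios (-0.64), quantile normalization (-0.51), the length adjustment (-0.69) and without B634 (-0.18, in a range of -0.18 to 0.34). None of these genes was called as reported. *Lrp2* was called under all 20 refits, with adjusted p-values up to 0.0339.

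Of the differences within a mouse, *Lrp2* minus the proximal tubule mean turned to -0.081 with the list median. *Amn* minus *Lrp2* (1.14) and *Lrpap1* minus *Lrp2* (0.96) missed the threshold with B tags alone, and ranged over 0.80 to 1.33 and 0.61 to 1.03 with 1 mouse left out. *Amn* minus *Cubn* passed after quantile normalization (0.82), the length adjustment (0.56) and without B614 (0.55, in a range of 0.19 to 0.56). The length adjustment and the list median were added after seeing the data. The causes were not tested. No paired analysis was possible because the tags of the mice carry no number shared between the groups. Depth limits *Ocrl* most, the least abundant of the 8 genes.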
